A study of Rattus norvegicus with 8 samples.

Results

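rno-miR-132 and rno-miR-212, written below without the species prefix, are a pair of microRNAs (miRNAs, short RNAs that lower the output of the messenger RNAs they pair with) made from neighbouring hairpins of 1 locus. They were followed here in pancreatic islets of Sprague Dawley rats aged 3 months (adult, males, 4 arrays) and 10 days (P10, sex not given in the labels, 4 arrays). The members were all non-control features of the array that carry the names miR-132, miR-212 or the star product of either hairpin, which is the arm usually present at lower level. They came to 4 of the 677 rat miRNAs on the array, 8 of its 1644 probes and 80 of its 13540 non-control features, 10 features per probe. Islets hold the hormone-secreting cells of the pancreas, most of them beta cells, which release insulin. The labels name both ages as controls, give no genotype or agent, and number the arrays of an age as biological replicates; the animals behind each array are not counted there, so p-values measure the spread between these samples. The series title names beta-cell maturation as the question.

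In neurons the locus is a target of CREB, the transcription factor that cyclic AMP (cAMP) and membrane depolarisation activate, and the repressor REST keeps it silent in many other tissues. In beta-cell lines cAMP-raising agents increase both miRNAs, and raising them increases insulin secretion. A miRNA finds its targets mainly through its seed, bases 2 to 8 counted from 1 at the 5′ end, so miRNAs with 1 seed share many predicted targets.

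The mature sequences below show how alike the guides are, with the seed in capitals. They are RefSeq's for the assembly GRCr8, all on the plus strand of chromosome 10, and the array's older names were matched by hairpin, with the guide as the 3p arm and the star product as the 5p arm.
miR-132, chr10:60522091-60522112: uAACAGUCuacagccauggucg
miR-212, chr10:60521811-60521832: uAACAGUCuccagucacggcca
miR-132*, chr10:60522055-60522076: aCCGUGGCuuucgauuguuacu
miR-212*, chr10:60521771-60521794: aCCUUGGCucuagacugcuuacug
The guides start 280 bases apart and share their seed and their first 9 bases. Over 22 positions they were identical at 17 and differed at 5, written from miR-132 to miR-212 as A10C, C14U, U17C, U20C and G22A. Among 693 mature rat miRNAs in the RefSeq table, these 2 were the only ones with this seed. The star products have different seeds and matched at 14 of 22 positions. The probe sequences were not used here, so the share of signal that 1 guide could give on the other's probes was not tested.

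miR-132 was higher in adult islets than in P10 islets, and its probe stood above background on all adult arrays but on only 2 of 4 P10 arrays, replicates 3 and 4. miR-212 was detected at both ages, and its level relative to the other miRNAs of the same array did not pass the test. Neither star product was detected at either age. The difference between the ages was larger for miR-132 than for miR-212.

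On its brighter probe, miR-132 had a mean processed signal (background-subtracted scanner units) of 138.3, 180.9, 224.8 and 171.7 on adult replicates 1 to 4. On P10 replicates 1 to 4 the same probe gave 0.945, 4.88, 34.4 and 60.5. All adult arrays lay above all P10 arrays, and the pair of P10 replicates 1 and 2 lay near 0. Before any scaling between arrays, the dimmest of 40 adult features read 115.5 and the brightest of 40 P10 features 71.7. Features are repeat spots of the same probe on the same arrays, so this gap adds no replicates to the array means. The second probe was dimmer, with 61.6 to 97.2 on adult arrays and -2.27 to 24.8 on P10 arrays, again without overlap. Its signal was 0.399 to 0.446 of the brighter probe's on adult arrays, and 0.381 and 0.41 on P10 replicates 3 and 4. The dimmer probe was well above background on all 4 adult arrays and on no P10 array, so its P10 signals and ratios rest on readings below the detection call.

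miR-212 gave 90.5, 99.8, 110.7 and 81.7 units on adult replicates 1 to 4 on its brighter probe. On P10 replicates 1 to 4 it gave 30.4, 35.6, 46.2 and 55.2 units, and all of its used features were called well above background on every array. Before any scaling between arrays the ages did not overlap, although the features came close, with a lowest adult value of 69.9 and a highest P10 value of 68.8. How many of all miRNAs lacked overlap before scaling was not counted, which bears on both guides. Without scaling the median difference over all tested miRNAs was 0.94 (log2, adult minus P10). The second probe of miR-212 was near the detection limit, with 18.6 to 25.1 units on adult arrays and 4.02 to 11.3 on P10 arrays. It was well above background on 2 adult arrays, replicates 1 and 3, and on no P10 array.

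The star products gave no signal at either age. The 2 probes of miR-132* had array means between -6.24 and -0.446 units in adult and between -5.36 and 1.16 in P10. Those of miR-212* lay between -1.71 and 2.21 units in adult and between -3.09 and 1.49 in P10. Across these 4 probes 304 features were used and 0 were well above background, so neither star product was tested.

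**Figure D1:**
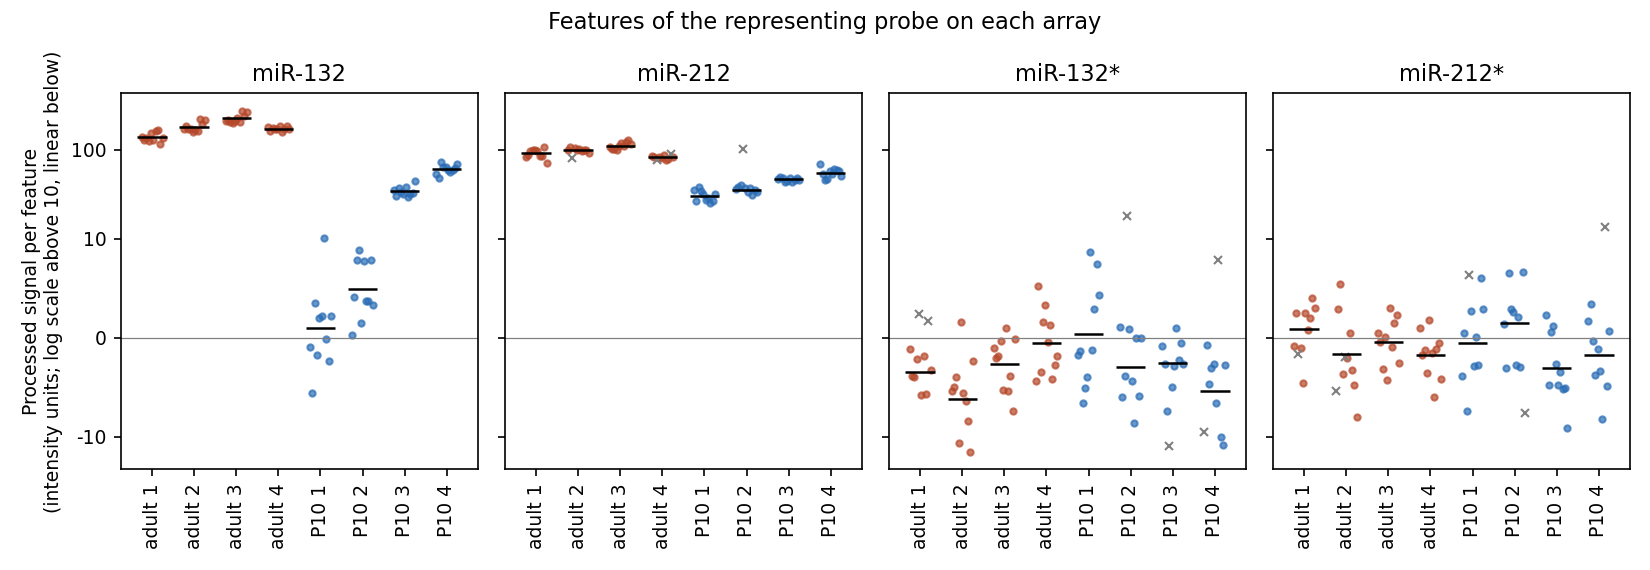
Processed signal of each of the 10 features of the representing probe (vertical axis, intensity units, log scale above 10 and linear below) on each array, adult in red and P10 in blue, for miR-132, miR-212 and their star products. Black lines are array means over used features and grey crosses are features flagged as outliers. miR-132 lies at 115.5 or more on adult arrays and near 0 on P10 replicates 1 and 2, miR-212 is above background on all arrays, and both star products scatter around 0.

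Arrays differed in overall brightness, which bears on both members. Over the 278 probes detected on all 8 arrays, the 75th percentile of the signal was 1284 to 1677 on adult arrays and 388, 440, 989 and 1690 on P10 replicates 1 to 4. Levels are therefore given as log2 of the signal over that percentile of the same array, raised to a common floor of -5.51. The arrays shared 1 slide, with each age in its own column, so age and slide column cannot be told apart. A miRNA was tested where 4 or more of the 8 arrays had it well above background. Of 238 such miRNAs, 113 (47.5%) differed between the ages, 65 (27.3%) being higher in adult and 48 (20.2%) lower (limma, Benjamini-Hochberg adjustment, threshold 0.05). The higher and lower calls numbered 90 and 34 when the percentile was taken over all probes. They numbered 61 and 17 with unscaled arrays, 59 and 9 when scaled on spike-ins, 33 and 46 after normexp, and 10 and 21 after cyclic loess.

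On this scale miR-132 stood at -3.29, -2.95, -2.90 and -2.90 in adult replicates 1 to 4. In P10 replicates 3 and 4 it stood at -4.85 and -4.80, and replicates 1 and 2 were at the floor. The lowest adult value was 1.51 above the highest P10 value. Of the 238 tested miRNAs, 25.6% had all adult arrays above all P10 arrays in this way. The level averaged -3.01 ± 0.19 in adult and -5.17 ± 0.39 in P10 (SD, n = 4 each), a difference of 2.15 ± 0.21 (log2, SE) with a limma adjusted p of 0.000141. It ranked 9th among the increases, a place that depends on the floor: it ranked 15th with undetected values at each array's own limit and 33rd with normexp. Of the 2 tested members 1 was called higher in adult, beside 27.3% of all tested miRNAs.

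The size of the miR-132 difference rests on how P10 replicates 1 and 2 are treated. These dim arrays could detect less: their lowest signal well above background corresponded to levels of -4.11 and -4.27, above the -4.85 and -4.80 measured on replicates 3 and 4. With undetected values raised to each array's own limit, miR-132 averaged -3.01 ± 0.19 in adult and -4.51 ± 0.37 in P10 (SD, n = 4 each). The difference was then 1.5, or 2.82-fold higher in adult in this setting, with a limma adjusted p of 0.00054. Against P10 replicates 3 and 4 alone, where the probe was detected, it was 1.81 (limma adjusted p = 0.000114). The call was lost with normexp background correction, at 0.55 (limma adjusted p = 0.0862).

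miR-212 stood at -3.90, -3.81, -3.92 and -3.97 in adult replicates 1 to 4, and at -3.67, -3.63, -4.42 and -4.94 in P10 replicates 1 to 4. The adult values lay inside the P10 range, which was wider, with the dim P10 arrays above and the bright ones below every adult array. The level averaged -3.90 ± 0.07 in adult and -4.16 ± 0.63 in P10 (SD, n = 4 each). The difference of 0.26 ± 0.29 (log2, SE, 95% interval -0.41 to 0.93) did not pass (limma adjusted p = 0.504), and its interval spans both a decrease and an increase.

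The reading of miR-212 depended on the scaling. It was called higher in adult without scaling (1.22), with spike-in scaling (1.31) and with the percentile taken over all probes (0.73), with limma adjusted p of 0.0199, 0.0242 and 0.00852. In those settings the median of all tested miRNAs also moved, to 0.94, 1.03 and 0.45. They differ from the reported scale by 1 factor per array, which moves all miRNAs off the floor together. That miR-212 stood 0.28 above the median each time, as it did here, follows from this and is no separate support. It was also called in the authors' value table (0.56, limma adjusted p = 0.0205, median of all miRNAs 0.08) and against P10 replicates 3 and 4 alone (0.78, limma adjusted p = 0.00542, median 0.10). With normexp the difference was -0.28 and with array weights -0.16, neither past the threshold.

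**Figure D2:**
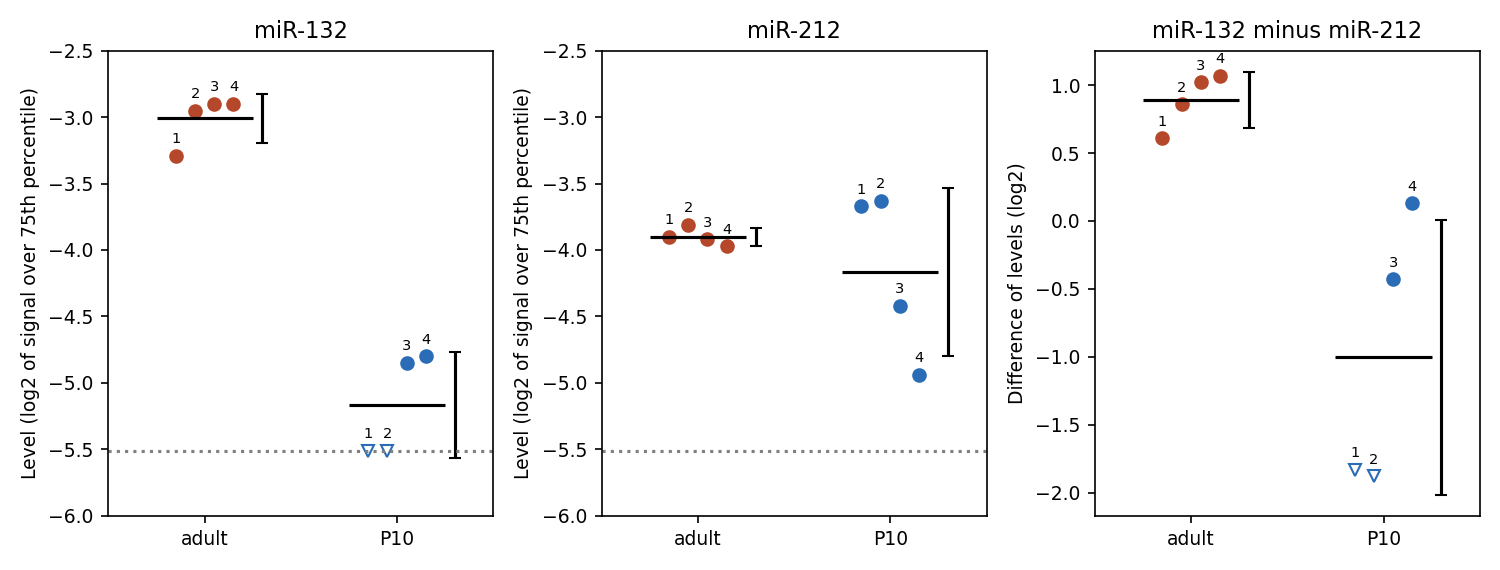
Levels of miR-132 and miR-212 (log2 of the signal over the array's 75th percentile) and their difference on each array, adult left and P10 right, with replicate numbers, group means (lines) and SD (bars). Open triangles mark arrays where miR-132 was at the floor (dotted), so that the true value is not known. All adult arrays lie above all P10 arrays for miR-132 and for the difference, while for miR-212 the adult values lie inside the P10 range.

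The guides of the cluster were compared directly through the level of miR-132 minus that of miR-212 on the same array, in which any factor shared by the whole array cancels where neither is at the floor. Probes of different miRNAs are not on 1 scale, so only the change of this value between the ages is read. It was 0.61, 0.86, 1.02 and 1.07 in adult replicates 1 to 4. It was -0.43 and 0.13 in P10 replicates 3 and 4, and -1.83 and -1.88 in replicates 1 and 2, where miR-132 was at the floor. Every adult array again lay above every P10 array. The mean was 0.89 ± 0.21 in adult and -1.0 ± 1.01 in P10 (SD, n = 4 each), a difference of 1.89 (two-sided exact permutation p = 0.0286, the smallest that 70 splits allow).

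The gap between the guides was smaller without the floor values and kept its direction. With undetected values at each array's own limit the P10 arrays read -0.43, -0.65, -0.43 and 0.13, and the adult arrays were as before. The difference was then 1.23 (exact two-sided permutation p = 0.0286). Against P10 replicates 3 and 4 alone it was 1.04, where an exact two-sided permutation test can reach no p below 0.0667, and p was 0.0667. Without any 1 adult array the value was 1.83 to 1.98 and the exact permutation p 0.0571.

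The authors' value table, made from the same arrays and so no independent support, lists both guides and neither star product. Its log2 values for miR-132 were 6.85, 7.15, 7.22 and 7.20 in adult replicates 1 to 4, against 3.58, 4.05, 5.55 and 5.49 in P10 replicates 1 to 4. Those for miR-212 were 6.24, 6.29, 6.27 and 6.08 in adult, against 5.74, 5.89, 5.77 and 5.26 in P10. In that table neither guide overlapped between the ages. The share of all miRNAs without overlap was 45.8% in either direction on the scaled levels used above, and was not counted for the authors' table. In the authors' table the difference was 2.44 for miR-132 (limma adjusted p = 0.00304), and the gap between the guides was 1.88 (exact two-sided permutation p = 0.0286). Both sizes rest in part on P10 replicates 1 and 2, where neither miR-132 probe was well above background.

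**Figure D3:**
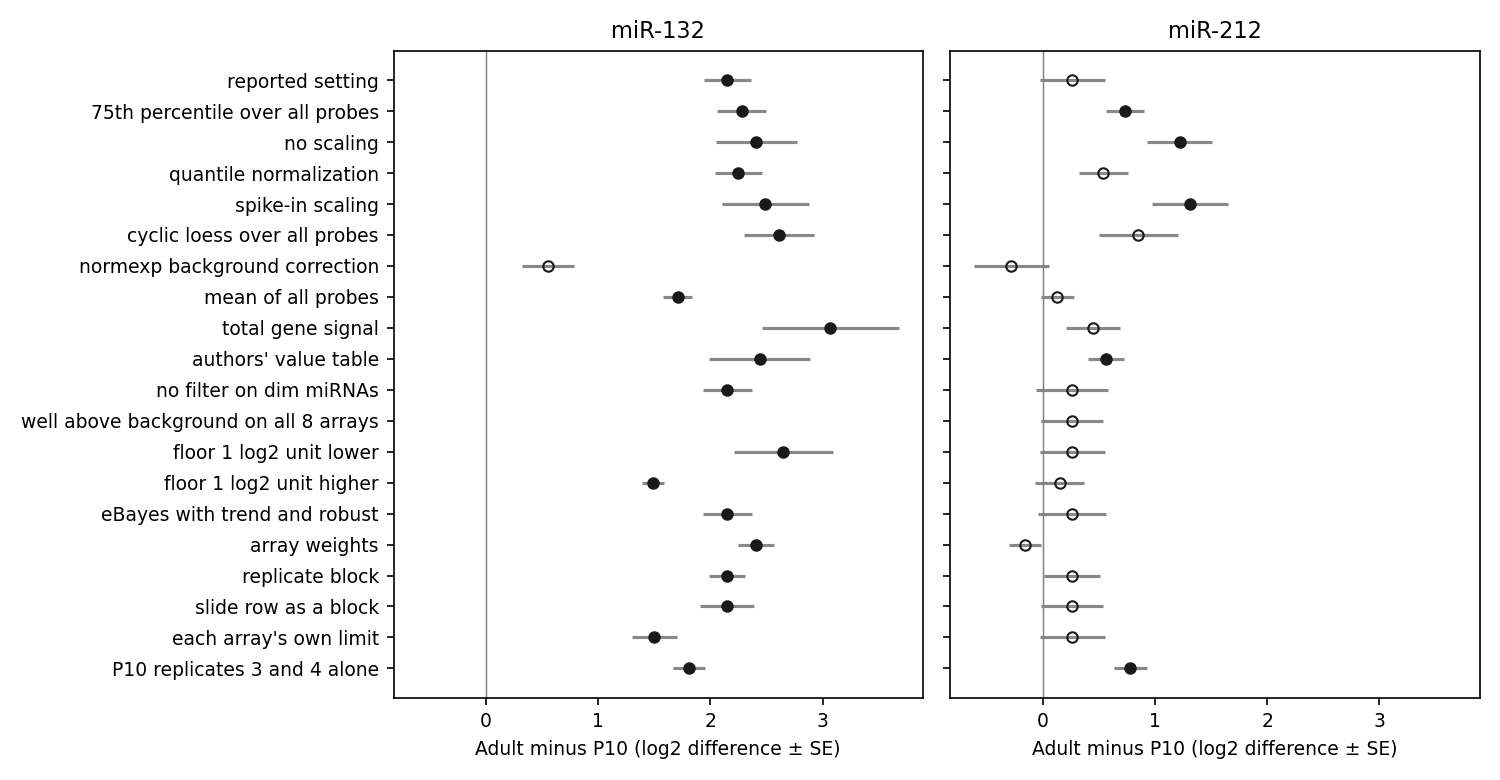
Adult minus P10 difference (log2, ± SE) of miR-132 and miR-212 under the reported setting and each alternative except those that leave out 1 array. Filled points have a limma adjusted p under 0.05 and open points do not; miR-132 has no point where detection on all 8 arrays was required. miR-132 is past the threshold in every setting shown except normexp (0.55), while miR-212 ranges from -0.28 to 1.31.

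The profile of each guide over the 8 arrays was set beside those of the other tested miRNAs. Likeness was measured as the root mean square distance between log2 profiles, each centred on its own mean, a description with no test. miR-132 was nearest to miR-29c* (0.23), miR-344a-3p (0.24), miR-204 (0.26), miR-129-1* (0.29) and miR-29c (0.30), which were 1.91 to 2.68 higher in adult. miR-204 is known to act on insulin gene expression in beta cells, and the miR-29 family on extracellular matrix and membrane fusion genes. miR-212 was nearest to let-7c (0.11), let-7b (0.13), miR-30a (0.16), miR-582 (0.18) and miR-200a (0.21), of which none passed the test (differences 0.01 to 0.38, limma adjusted p 0.223 to 0.967). The guides lay 1.14 apart, and miR-212 ranked 116th of 237 in likeness to miR-132.

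These distances depend on the floor, which sets miR-132 on P10 replicates 1 and 2. With undetected values at each array's own limit, miR-29c* (0.23) and miR-344a-3p (0.33) were again nearest to miR-132, but miR-200c (0.34), miR-23b (0.35) and miR-96 (0.37) came next. For miR-212, let-7c, let-7b and miR-30a stayed among the nearest 5, with miR-664 and miR-505 beside them. The guides were then 0.66 apart and miR-212 ranked 45th in likeness to miR-132.

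Other miRNAs known to respond to neuronal activity, or to cAMP or glucose in beta cells, were listed beside the members. The list joins activity-responsive miRNAs with others that cAMP or glucose lowers, so its median and counts have no common direction to be read in. Of 15 such products on the array, 5 were tested, with a median difference of 0.15, against -0.01 over all 238 tested. Of these, 1 was higher, 1 was lower and 3 did not pass, beside 27.3% higher and 20.2% lower among all tested miRNAs. miR-375, the islet miRNA that cAMP lowers in beta cells, was at 3.73 ± 0.14 in adult and 3.27 ± 0.30 in P10 (SD, n = 4 each, difference 0.47, limma adjusted p = 0.0485). This call ended when P10 replicate 1 (0.34), P10 replicate 2 (0.44) or any single adult array (0.41 to 0.51) was left out, and the difference stood at -0.41 in the authors' value table and -0.32 after quantile normalization. miR-379, of the imprinted Dlk1-Dio3 cluster that neuronal activity induces, was lower in adult at -2.97 ± 0.15, against -2.28 ± 0.26 in P10 (difference -0.69, limma adjusted p = 0.00752), but stood at 0.27 without scaling and 0.36 with spike-in scaling, not called in either.

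Its cluster neighbours miR-329 (0.01) and miR-381 (0.15) did not pass, with limma adjusted p of 0.967 and 0.408. miR-338, which lies in an intron of the kinase gene Aatk, was at 0.36 (limma adjusted p = 0.475). miR-485, also of the Dlk1-Dio3 cluster, was well above background on 3 adult arrays and no P10 array. miR-184 was so on 1 P10 array and no adult array, and neither was tested in the reported setting. miR-485 was tested and called higher in adult with total gene signal (0.84, limma adjusted p = 0.00452) and in the authors' value table (0.88, limma adjusted p = 0.0151). With no filter on dim miRNAs it was at 0.23 and not called (limma adjusted p = 0.0829). miR-134 and the star products of this list were not above background on any array.

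**Figure D4:**
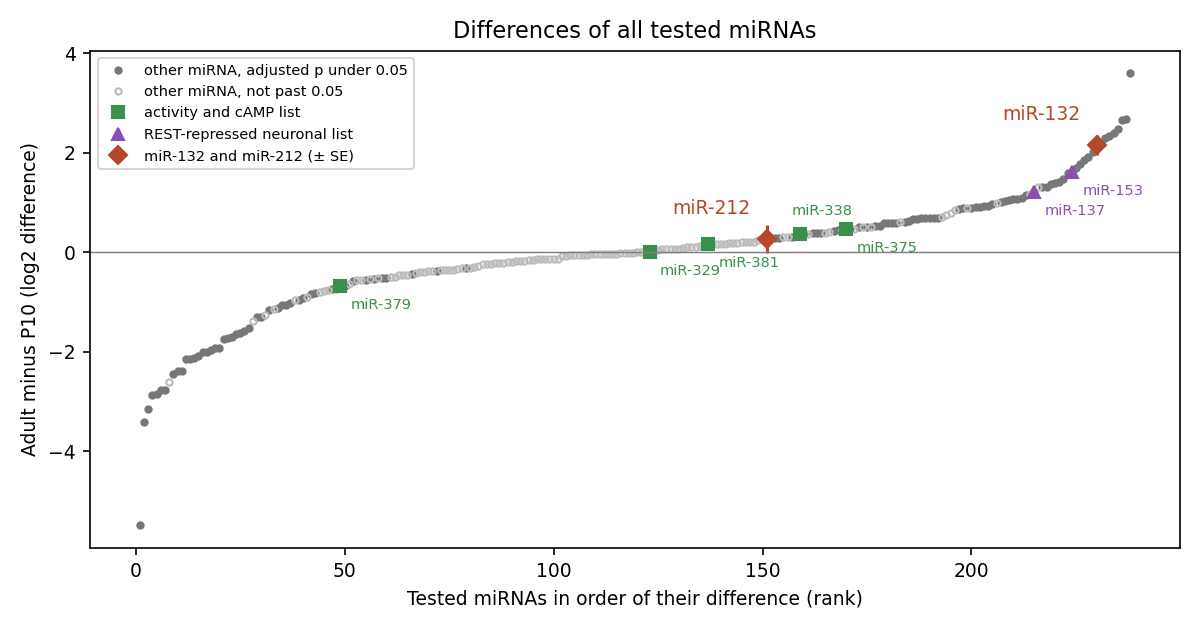
The 238 tested miRNAs in order of their adult minus P10 difference (log2), with miR-132 and miR-212 (± SE) and the tested members of both lists marked. miR-132 lies at 2.15 among the increases, miR-212 at 0.26 near the middle, and the activity and cAMP list between -0.69 and 0.47.

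Of 8 neuronal miRNA products known as REST targets, miR-153 and miR-137 were tested, with a median of 1.41, against -0.01 over all 238 tested. Of these 2, 1 was called higher in adult, beside 27.3% of all tested miRNAs. miR-153, made from introns of genes for secretory granule proteins, was at -0.03 ± 0.09 in adult and -1.64 ± 0.84 in P10 (SD, n = 4 each), a difference of 1.61 (limma adjusted p = 0.00882, 0.89 and not called with cyclic loess). miR-137, known from neuronal differentiation, was at -3.49 ± 0.21 in adult and -4.69 ± 1.05 in P10, a difference of 1.2 that did not pass (limma adjusted p = 0.0713). Its size rests on the floor and on single P10 arrays: it was 0.54 at each array's own limit, 0.39 against P10 replicates 3 and 4 alone, -0.03 with normexp, and 1.66 and called without P10 replicate 4 (limma adjusted p = 0.0029). It was also called when the percentile came from every probe (1.32) and under array weights (1.88). The list's median was 1.08 at each array's own limit, 0.69 against P10 replicates 3 and 4 alone and 0.61 with normexp. Like miR-132, miR-137 was at the floor on P10 replicates 1 and 2. It read -4.44 and -3.32 on P10 replicates 3 and 4. miR-124, miR-9 and miR-9*, taken here as markers of neural tissue, were not above background on any of the 8 arrays. A contribution of neural cells was not tested.

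Markers of several cell types differed between the ages beside miR-132. The summed level of miR-375, miR-7a and miR-7b was 5.41 to 5.60 in adult and 3.53, 4.14, 4.64 and 4.65 in P10 replicates 1 to 4, and all 3 were detected on every array. The P10 arrays that lacked miR-132 signal, the dim replicates 1 and 2, had the lowest endocrine sums. These arrays were also low in other classes. The endothelial sum, of miR-126 and miR-126*, was 1.23 and 1.5 there, against 2.15 and 2.23 on P10 replicates 3 and 4. The leukocyte sum, of miR-142-3p, miR-142-5p, miR-223 and miR-150, was 0.08 and -0.47, against 0.51 and 1.87. The mesenchymal sum was 2.09 and 2.26, against 2.61 and 2.88. The erythroid and gut epithelium sums did not split this way. P10 replicates 1 and 2 also had the highest acinar sum, of miR-216a and miR-217, at -0.35 and -0.66. It was -4.09 and -4.51 on P10 replicates 3 and 4 and -2.36 to -1.33 in adult. The sum leaves out a further acinar product, miR-216b-5p. Adult minus P10 was 0.61 for miR-216a, 0.51 for miR-217 and -0.47 for miR-216b-5p, none past the limma threshold. The gut epithelium sum, of miR-192, miR-194 and miR-215, was -1.83 to -0.98 in adult and 0.14 to 3.75 in P10, without overlap, and miR-215 was detected on no adult array and on all P10 arrays. The mesenchymal sum overlapped, at 2.35 to 2.83 in adult and 2.09 to 2.88 in P10, and its members went both ways. miR-199a-5p (-1.75), miR-199a-3p (-1.62) and miR-214 (-1.64) were each called lower in adult by limma. miR-143 was called higher in adult (0.93, limma adjusted p = 0.0485), and miR-145 (0.79) did not pass (limma adjusted p = 0.0817). The part of cell makeup in the miR-132 difference was not tested, and in bulk islets fewer cells of a type and less RNA per cell cannot be told apart. Against P10 replicates 3 and 4 alone the miR-132 difference was 1.81, as given above. Their endocrine sums (4.64 and 4.65) were still below every adult array, and their gut epithelium sums (3.75 and 1.24) above. That comparison therefore does not match cell makeup between the ages.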

How the data were processed

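Per the labels, total RNA was labelled with cyanine 3 for Agilent miRNA arrays (1 colour). Per the file headers, the deposited intensity values come from Agilent Feature Extraction, version 10.7.3.1. Background is already subtracted, so some values are negative. The authors' deposited value table holds log2 values of 311 miRNAs. From the values, its columns share 1 set of sorted values, as after quantile normalization, and follow each array's total gene signal. The steps behind it are not given in the sources used here.

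Features flagged as outliers (2.34% to 3.65% per array) were left out, none was saturated, and the rest were averaged per probe. Signals were divided by the array's 75th percentile over 278 probes above background on all arrays, raised to a floor (the 1st percentile of detected probes, median of 8 arrays) and log2-transformed. The probe with the highest mean represents a miRNA. limma 3.58.1 (R 4.3.3) compared adult with P10 over all tested miRNAs, without a block. The fit was tested on simulated data. The number of arrays limits the precision. No 2 arrays were identical.

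Replicate numbers did not pair the arrays. Alternatives covered scaling, background, signal, probes, filter, floor, variance, weights, block and left-out arrays. Each array's own limit and slide row as a block were chosen after seeing the data. Slide and scan could not serve as a block, since all arrays shared 1 of each. Members, lists and tests were chosen with earlier results of these data known. Named were the members, the tested products of both lists, the 5 nearest patterns of each guide, and marker miRNAs beside a result.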

Additional observations from a re-analysis of the deposited data

Results flagged for a closer look

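Among the 18 groups of 4 arrays checked for an array far from the others (both guides and the tested members of both lists, at each age), 1 was found. In adult islets miR-132 was at -3.29 on replicate 1, below the range of -2.95 to -2.90 on the other adult arrays. The gap was 0.863 of the whole adult range, past Dixon's 95% critical value, and chance alone gives such a result in about 5% of groups. Replicate 1 stayed above every P10 array, and without it the miR-132 difference was 2.25 (limma adjusted p = 0.000573).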

How the results depend on the processing

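miR-132 kept its direction in all 26 alternatives and its call in 25 (1.49 to 3.07), and lost its call with normexp (0.55). It was not tested where detection on all 8 arrays was required. miR-212 passed in 5 of 27 alternatives: with the percentile over all probes (0.73), no scaling (1.22), spike-in scaling (1.31), the authors' value table (0.56) and P10 replicates 3 and 4 alone (0.78). The cause was not tested. The gap between the guides had the same sign in all 23 alternatives (0.83 to 2.63), and left-out arrays gave 1.60 to 2.27. It missed the threshold in 7. With P10 replicates 3 and 4 alone (1.04, exact p = 0.0667) and with the replicate block or slide row as a block (1.89, exact p = 0.125 each), no smaller p was possible. Without adult replicate 1, 2, 3 or 4 (1.83 to 1.98) the exact p was 0.0571 each, where 0.0286 was possible. The replicate block left miR-132 at 2.15 (limma adjusted p = 0.00107) and miR-212 at 0.26. Same-numbered arrays correlated at 0.18, -0.09, 0.48 and -0.23, and 3 of 8 arrays correlated best with their own number.

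The count over all tested miRNAs was 113 of 238 (47.5%) here. Of 238, it was 124 with the percentile over all probes, 78 with no scaling, 68 with spike-in scaling and 179 with array weights. It was 31 of 236 with cyclic loess and 85 of 677 with no filter. The lists held 5 and 2 tested products in the reported setting, too few to read against these shares. In the activity and cAMP list, 2 passed here. In it 0 passed with no scaling, spike-in scaling and cyclic loess. It held 1 with the percentile over all probes, normexp, no filter, the lower floor, the replicate block, slide row as a block, each array's own limit and P10 replicates 3 and 4 alone, and 1 to 3 with an array left out. In the REST list, 1 passed here, 2 with the percentile over all probes and array weights, 0 with cyclic loess and no filter, and 1 to 2 with an array left out. Signal over background limits miR-132 on P10 replicates 1 and 2 and both star products everywhere.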
